A study of Mus musculus with 78 samples.

Results

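The hepatic ABC export transporters are 5 genes of the liver panel, chosen by name. ABCC2, ABCB1A and ABCB11 encode pumps of the canalicular membrane, through which hepatocytes secrete into bile, and ABCC3 and ABCC4 encode pumps of the basolateral membrane, which faces the blood. They are 5 of the 2755 genes on the panel, and all 5 are among the 2205 genes that passed the filter used by the authors. ABCC4 is among these although the geometric mean of its normalized values, 3.203, lies under the cut stated in the paper.

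Sections of archived, formalin-fixed and paraffin-embedded liver from male B6C3F1 mice were profiled with TempO-Seq, in which pairs of detector probes are joined on their target transcript and counted by sequencing. Treated mice drank dichloroacetic acid (DCA), a by-product of water disinfection, at 3.5 g/L for different spans, and control mice drank water without it. Of 78 libraries deposited, 10 were left out by the authors, and the remaining 68 fall into 13 groups. The design asks which transcript changes outlast exposure and which differ between short and long exposure.

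Control-10 (4 libraries), Control-32, Control-57 and Control-78 (6 each) are untreated mice collected after 10, 32, 57 and 78 weeks. The S1 groups (6 each) had DCA for the first 10 weeks and then water alone for 0 (S1-10), 22 (S1-32), 47 (S1-57) or 68 weeks (S1-78). S2-32 (6 libraries) and S2-78 (4) received DCA for 32 weeks, with 0 and 46 weeks of water after it. S3-57 (5) and S3-78 (4) received DCA for 57 weeks, with 0 and 21 weeks of water after it. Direct-78 (3) received DCA for all 78 weeks. Every library is made from liver sections of a separate mouse, so the counts pool hepatocytes with all other cells of the sections.

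ATP-binding cassette pumps use ATP to push solutes out of the cell against their gradient. ABCB11, the bile salt export pump, carries conjugated bile acids into the canaliculus; ABCC2 carries conjugated organic anions such as bilirubin glucuronides, and ABCB1A, a mouse P-glycoprotein, carries bulky hydrophobic compounds. ABCC3 and ABCC4 return conjugates and bile acids from the hepatocyte to the blood, a route known to gain weight when bile flow is blocked.

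Total counts of the 68 libraries ran from 541245 to 4285848, with a median of 2162678. Depth was uneven between groups. The median total was 3505220 in Control-78 but 671116 in Direct-78, whose totals of 541245 to 699825 lie below those of every Control-78 library (2098777 to 4285848). The totals of S3-78 (1154431 to 1936370) and S3-57 (1123317 to 2030701) also lie below those of their age-matched controls, and those of S1-32 (2979117 to 3914572) lie above those of Control-32 (721372 to 2731045). A count of 0 allows up to 3 counts, which is 0.530 to 4.42 CPM (counts scaled to the library total and its TMM factor) depending on the library; this covers counting error only.

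Mouse Abcb11 lies at chr2:69238282-69342616 on the minus strand, Abcb1a at chr5:8660077-8748575 on the plus strand, Abcc2 at chr19:43782192-43840740 on the plus strand, Abcc3 at chr11:94343295-94392997 on the minus strand and Abcc4 at chr14:118482692-118706219 on the minus strand of GRCm38, and all are annotated as protein coding. RefSeq promoter entries (GRCm38.p6) were matched for 4 of the 5 genes: ABCB11, ABCB1A, ABCC2 and ABCC4. The RefSeq start of the ABCB1A entry (chr5:8567091) lies 92986 bases before the annotated start, so its motif search was not made at that start, and 1 of the 2 ABCC4 entries starts 29288 bases inside the annotated gene. The sequences before the start of ABCB11 (chr2:69342617-69342866, minus strand, 250 bases) and ABCC2 (chr19:43782058-43782191, plus strand, 134 bases) are shown because these 2 genes had the most similar group means among the pairs of members. Capitals mark TGACCT, which is the nuclear receptor half-site AGGTCA read on the other strand.
ABCB11: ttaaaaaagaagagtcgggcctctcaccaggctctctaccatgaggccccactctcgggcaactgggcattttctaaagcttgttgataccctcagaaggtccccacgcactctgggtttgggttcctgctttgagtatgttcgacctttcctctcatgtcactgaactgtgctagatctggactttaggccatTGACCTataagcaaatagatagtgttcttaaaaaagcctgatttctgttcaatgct
ABCC2: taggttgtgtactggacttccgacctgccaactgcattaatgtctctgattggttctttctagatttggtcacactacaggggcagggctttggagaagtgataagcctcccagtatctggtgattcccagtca

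Motifs were chosen after seeing the data and searched on both strands in the 250 bases before the RefSeq start. The half-site AGGTCA occurred in 14.0% of 32851 promoters, in that of ABCB11 at 56 bases before the start and in that of ABCC2 at 49 bases. The latter lies in the 116 bases nearest the RefSeq start of ABCC2, which overlap a transcribed stretch and are not printed. TGACNNNGC, the core of the antioxidant response element, occurred in 10.2% of promoters, once in the unprinted stretch of ABCC2 at 98 bases before the start and once in each of the 2 entries of ABCC4. The inverted repeat of the half-site, with 1 base between its arms, occurred in 0.00609% of promoters, the same repeat without the last base of an arm in 0.0244% and TATAAA in 12.4%, and none of these was in an entry of a member. These matches are letters in a window and were not tested as binding sites.

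Levels are given as CPM after scaling by TMM factors and are compared between groups for 1 gene at a time, because probes differ in efficiency and the assay attenuates abundant transcripts. Fold changes, their standard errors (SE) and adjusted p values come from edgeR's quasi-likelihood test with Benjamini-Hochberg adjustment over 2205 genes; a change was called at an adjusted p of 0.05 or less with a fold change beyond 1.5. In bulk tissue, fewer cells that express a gene and less RNA per cell cannot be told apart.

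ABCB11, the bile salt export pump, was highest in mice collected at the end of 10 weeks of DCA or 22 weeks after it. In Control-32 its lowest, median and highest values were 205, 415 and 1934 CPM, and in S1-32 they were 2297, 2580.3 and 2817 CPM. All 6 S1-32 libraries lay above all 6 controls, and the treated values were much closer to each other than the control values. The log2 fold change was 1.81 ± 0.57 (SE, adjusted p = 0.0146 in edgeR), 3.51-fold higher. It was the only member called in S1-32, 1 of 5, where 29.1% of all genes were called. The call held when each of the 12 libraries was left out in turn (adjusted p 0.00184 to 0.0489). It was lost once library depth was in the model (0.76 ± 0.56, adjusted p = 0.503) and when all deposited libraries were used (1.78 ± 0.78, adjusted p = 0.114).

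In S2-32, where DCA had not been stopped, ABCB11 was 237, 1856 and 2142 CPM (lowest, median, highest). All 6 values lay below the lowest of S1-32, and 3 of 6 lay above all Control-32 values. The low value belongs to mouse 41, while the other 5 libraries reached at least 1541 CPM. Mouse 41 also had the lowest hepatocyte marker sum of the group, 14498 CPM against 41868 to 73637 CPM, the highest stellate sum, 889.9 CPM, and the highest acinar sum, 90.6 CPM against 1.17 to 5.83 CPM; their part in its ABCB11 was not tested. The log2 fold change against Control-32 was 1.15 ± 0.56 and was not called (adjusted p = 0.163 in edgeR). Without Control-32 mouse 74, the highest control at 1934 CPM, it was 1.73 ± 0.58 and called (adjusted p = 0.0267).

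At 10 weeks ABCB11 was 75.5, 1591, 863 and 1556 CPM in the Control-10 libraries (mice 68, 69, 71 and 72) and 2060.1, 2489.6 and 3038 CPM (lowest, median, highest) in S1-10. All 6 treated libraries lay above all 4 controls. The log2 fold change was 1.29 ± 0.64 and was not called (adjusted p = 0.236 in edgeR). It was 0.90 without mouse 68, the control at 75.5 CPM. None of the 5 members was called in S1-10, where 5.49% of all genes were called; 1 member, ABCB11, had an unadjusted p under 0.05, and DESeq2 and limma called 0.

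At 78 weeks the order was reversed for the longest exposures. ABCB11 was 479, 1252 and 2218 CPM in Control-78 (lowest, median, highest), and 113, 410.3 and 132 CPM in the 3 Direct-78 libraries (mice 64, 65 and 66). All 3 Direct-78 values lay below every control. Its log2 fold change was -2.52 ± 0.77 (adjusted p = 0.0156 in edgeR), 5.73-fold lower. The call was lost without Direct-78 mouse 64 (-2.20, adjusted p = 0.0938) or mouse 66 (-2.22, adjusted p = 0.0871), and without the 9 libraries high in pancreas acinar genes, mouse 64 among them (-2.13, adjusted p = 0.0774). Once library depth was in the model the value turned to 0.79 ± 0.92 (adjusted p = 0.737).

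The 4 S3-78 libraries, taken 21 weeks after DCA was stopped, held 403, 689.8, 117 and 308 CPM of ABCB11 (mice 55, 56, 59 and 60). Of these, 3 lay below every Control-78 value and mouse 56 lay within their range. The log2 fold change was -1.72 ± 0.66 and was not called (adjusted p = 0.0694 in edgeR). It was called without S3-78 mouse 56 (-2.13, adjusted p = 0.0381), without Control-78 mouse 86 (-1.90, adjusted p = 0.0430), with the number of detected genes in the model (-1.88, 0.0445), with only the compared groups (-1.74, 0.0499) and in DESeq2 (-1.60, 0.0263). S2-78 libraries held 1177, 2030.2, 663 and 190.4 CPM, spread across and below the control range. The 190.4 CPM is mouse 47, whose acinar sum was 15025 CPM against 6.37 to 25.7 CPM in the other 3. S1-78 libraries held 316, 1774 and 2494 CPM (lowest, median, highest), with 2 above all controls and 2 below them all. The lowest is mouse 31, with an acinar sum of 204 CPM. Mouse 36, with the highest acinar sum of the group at 24449.9 CPM, held 1452 CPM of ABCB11, within the control range. Neither group was called, with log2 fold changes of -0.30 ± 0.62 in S2-78 and 0.31 ± 0.55 in S1-78.

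At 57 weeks the ABCB11 values overlapped throughout. Control-57 held 390.4, 752 and 1335 CPM, S1-57 held 288, 957 and 2822 CPM (lowest, median, highest), and S3-57 held 655, 1501, 332, 1221 and 462 CPM. Log2 fold changes were 0.51 ± 0.55 in S1-57 and 0.06 ± 0.58 in S3-57, both uncalled. The lowest S1-57 and S3-57 values, of mice 27 and 51, are again from libraries high in acinar genes by library total (sums of 197 and 336 CPM). After TMM scaling the sums were 98.5 and 259 CPM, and mouse 27 was no longer among the high libraries.

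**Figure D1:**
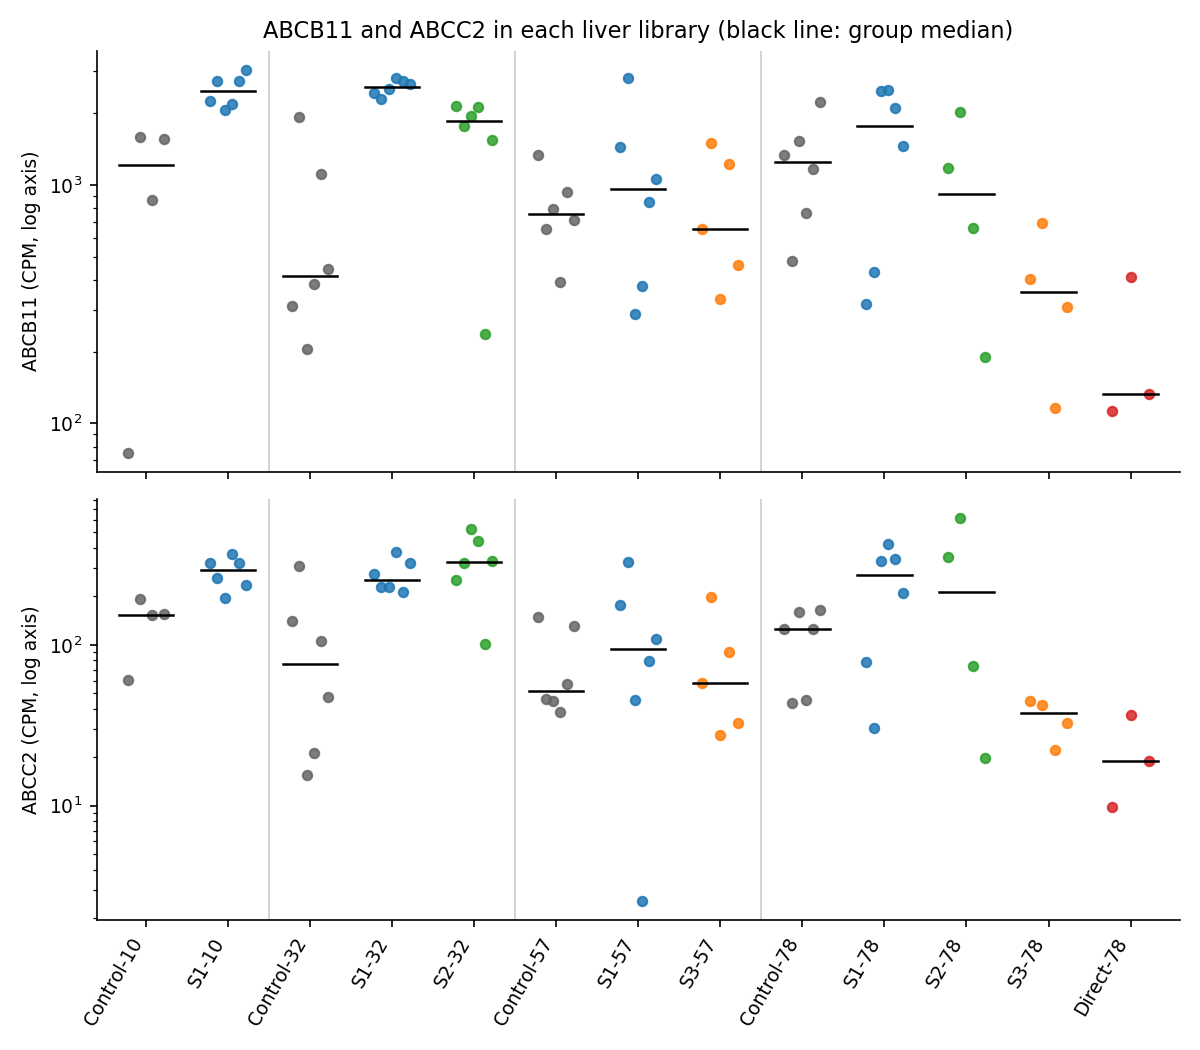
TMM-scaled CPM of the canalicular pumps ABCB11 and ABCC2 on a log axis, 1 point per library, in the 13 groups. The 6 S1-32 libraries of ABCB11 lie between 2297 and 2817 CPM, above all Control-32 libraries, and the 3 Direct-78 libraries lie between 113 and 410.3 CPM, below all Control-78 libraries.

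ABCC2, the canalicular pump for conjugated anions, showed a similar order of groups. In Direct-78 its values were 9.88, 36.4 and 18.9 CPM, against 43.4, 125 and 166 CPM in Control-78 (lowest, median, highest). All 3 Direct-78 values lay below every control, although they rest on 10, 27 and 14 counts. For ABCC2 the log2 fold change was -2.37 ± 0.88 (adjusted p = 0.0418 in edgeR), 5.15-fold lower. With ABCB11, 2 of 5 members were called in Direct-78, both lower, where 24.4% of all genes were called. The ABCC2 call was lost without Direct-78 mouse 64 (log2 fold change -2.004, adjusted p = 0.172) or mouse 66 (-2.25, 0.128). Leaving out Control-78 mouse 85 (-2.19, 0.0648), 87 (-2.23, 0.0645), 89 (-2.28, 0.0568) or 90 (-2.22, 0.0685) also lost the call. It was also lost under RLE scaling (-2.002, adjusted p = 0.0705) and under upper-quartile scaling (-1.89, 0.0773). The same held without the libraries high in acinar genes (-1.92, 0.160) and in limma (-2.26, 0.0506). In all of these fits the value stayed below 0, while library depth in the model turned it to 0.21 ± 1.18 (adjusted p = 0.959).

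In S3-78 ABCC2 was 44.9, 42.3, 22.3 and 32.7 CPM, with 3 of 4 libraries below every Control-78 value. Its fitted log2 fold change was -1.64 ± 0.73 and was not called (adjusted p = 0.122 in edgeR), but it was with all deposited libraries (-2.16, adjusted p = 0.0480) and with only the compared groups (-1.66, 0.0383). None of the 5 members was called in S3-78, where 13.3% of all genes were called; 2 had an unadjusted p under 0.05, ABCC2 and ABCB11, DESeq2 called 1 and limma 0.

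At 32 weeks ABCC2 was 15.6, 76.5 and 308 CPM in Control-32, 214, 252 and 379 CPM in S1-32, and 101, 326 and 522 CPM in S2-32 (lowest, median, highest). All treated libraries lay above the control median, 2 of 6 in S1-32 and 4 of 6 in S2-32 above every control. Log2 fold changes were 1.36 ± 0.62 in S1-32 (adjusted p = 0.0865 in edgeR) and 1.62 ± 0.63 in S2-32 (adjusted p = 0.0820), neither called. Without Control-32 mouse 74, which held the 308 CPM, they were 2.06 (adjusted p = 0.0115) and 2.32 (adjusted p = 0.00998), both called, and S2-32 was also called without its mouse 41 (1.82, adjusted p = 0.0427). S1-32 was also called with the number of detected genes in the model (1.62, adjusted p = 0.0463), and DESeq2 and limma called ABCC2 in both. None of the 5 members was called in S2-32 by edgeR, where 10.7% of all genes were called; 2 had an unadjusted p under 0.05, and DESeq2 and limma each called 1.

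In S1-10 ABCC2 was 196, 292 and 365 CPM (lowest, median, highest), above all 4 Control-10 values of 60.8, 194, 154 and 155 CPM. The gap to the highest control was narrow, and the log2 fold change of 1.01 ± 0.70 was not called (adjusted p = 0.422 in edgeR). S1-57 spanned 2.55 to 327 CPM, the lowest value being 2 counts in mouse 28. S1-78 spanned 30.2 to 423 CPM with 4 of 6 libraries above all controls, and S2-78 held 354, 612, 74.2 and 19.8 CPM. S3-57 held 57.6, 198, 27.5, 89.9 and 32.6 CPM, overlapping the 38.3 to 149 CPM of Control-57. Log2 fold changes in these 4 groups were 0.67, 1.09, 1.25 and 0.06, none called. Leaving out 1 library gave 0.10 to 0.96 in S1-57, 0.84 to 1.30 in S1-78 and 0.42 to 1.64 in S2-78.

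ABCB1A, the P-glycoprotein gene, was sparsely counted, with a median of 14.5 counts per library and 9 of 68 libraries at or under 3 counts. In Direct-78 it was 15.8, 56.7 and 9.46 CPM (16, 42 and 7 counts), against 0.905, 4.87 and 11.6 CPM in Control-78 (lowest, median, highest). In S3-78 it was 34.2, 14.0, 13.8 and 13.7 CPM. All 4 S3-78 libraries and 2 of 3 Direct-78 libraries lay above every control, in the opposite direction to ABCB11 and ABCC2. Log2 fold changes were 2.22 ± 0.97 in Direct-78 (adjusted p = 0.0835 in edgeR) and 1.70 ± 0.90 in S3-78 (adjusted p = 0.206), neither called; DESeq2 called the former (adjusted p = 0.0369). With the number of detected genes in the edgeR model the Direct-78 value was 5.02 ± 1.18 (adjusted p = 0.00249), and without mouse 65 it was 1.31 (adjusted p = 0.383). S1-78 libraries spanned 5.79 to 60.2 CPM and gave a log2 fold change of 1.66 ± 0.83, also uncalled (adjusted p = 0.373). The 60.2 CPM is mouse 31 alone, the others reaching at most 14.1 CPM, and without it the value was 0.78. Mouse 31 also had the highest bile duct marker sum of the group, 607 CPM against 57.7 to 270.4 CPM, and both it and S3-78 mouse 55, at 34.2 CPM, are among the 9 libraries high in pancreas acinar genes. Without these 9 the ABCB1A value was 0.77 in S1-78 and 1.22 in S3-78.

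In Control-10 ABCB1A was 49.6, 9.48, 0 and 4.31 CPM. Mouse 68, at 49.6 CPM, was also the library with the lowest ABCB11 of the group, and it raises the group mean to 15.8 CPM. Its hepatocyte marker sum was 7817 CPM, against 35803 to 40699 CPM in the other 3 controls, and the part of this in its values was not tested. S1-10 libraries spanned 4.24 to 11.2 CPM, and the log2 fold change of -1.15 ± 0.90 became 0.59 ± 1.00 without mouse 68. In the remaining groups the log2 fold changes ran between -0.24 and 0.69, and their CPM ranges overlapped the controls.

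**Figure D2:**
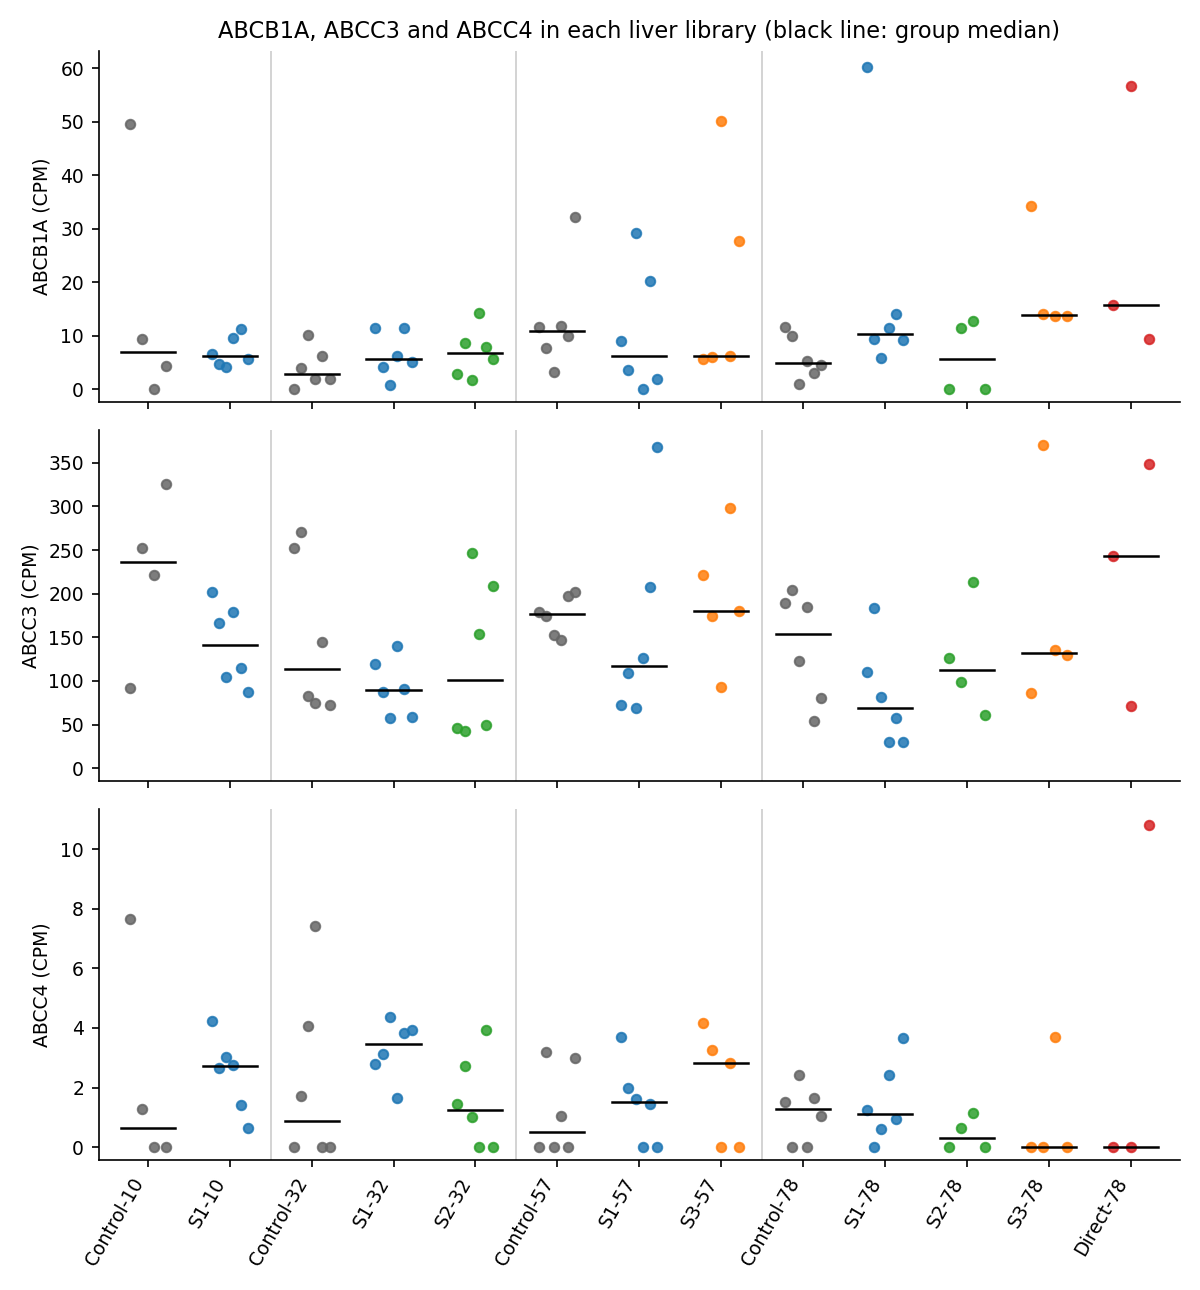
TMM-scaled CPM of the canalicular pump ABCB1A and the basolateral pumps ABCC3 and ABCC4, 1 point per library, in the 13 groups. All 4 S3-78 libraries of ABCB1A lie above every Control-78 library, and 24 of 68 libraries hold no ABCC4 count.

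ABCC3, the basolateral conjugate pump, varied least between groups. Its highest group mean was 2.71 times its lowest, against 15.1 times for ABCC2, 11.8 for ABCB11 and 6.82 for ABCB1A. In Direct-78 it was 243, 71.5 and 349 CPM, against 54.2, 154 and 204 CPM in Control-78 (lowest, median, highest). Mice 64 and 66 lay above every control and mouse 65 within their range, while for ABCB11 mouse 65 was the highest of the 3. For ABCC3 the log2 fold change was 0.67 ± 0.54 (adjusted p = 0.362 in edgeR). It ran from 0.21 without mouse 66 to 1.26 without mouse 65, and over the other settings from 0.15 with the number of detected genes in the model to 1.18 under upper-quartile scaling, and it was called in none of these fits (adjusted p from 0.0861 to 0.857). In S1-32 ABCC3 was 57.97, 89.4 and 140.0 CPM, against 72.99, 114 and 271 CPM in Control-32, with a log2 fold change of -0.70 ± 0.46. Over the 9 treated groups its log2 fold changes ran from -0.76 (S1-78) to 0.67 (Direct-78), with adjusted p from 0.239 to 0.936.

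ABCC4, the other basolateral pump, was close to the limit of detection. Counts ran from 0 to 17, with 24 of 68 libraries at 0 and 33 at or under 3 counts. The only group with more than 3 counts in every library was S1-32, at 5 to 10 counts (1.65 to 4.36 CPM), where 3 of 6 Control-32 libraries were at 0. In Direct-78 mouse 66 held 8 counts and mice 64 and 65 held 0. The fitted log2 fold change there, 1.53 ± 1.35, rests on that library, and without it the group has no count. With the number of detected genes in the edgeR model it was 4.14 ± 1.57 (adjusted p = 0.0395), still with counts in 1 library, and in the fit without this covariate no ABCC4 change was called.

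Over the 9 comparisons with age-matched controls, 3 of 45 member tests were called, 10 had an unadjusted p under 0.05, DESeq2 called 7 and limma 4. Over all genes, 10.5% of the 19845 tests were called by edgeR and 24.5% had an unadjusted p under 0.05. The share of member tests in edgeR was thus not above that of all genes. No share of all genes is given here for DESeq2 or limma, so their member counts are not compared with all genes. No member was called in S1-57 (1.59% of all genes called), S1-78 (1.81%), S2-78 (1.63%) or S3-57 (6.39%); none of these had an unadjusted p under 0.05 for a member, and DESeq2 and limma called 0. In Direct-78 the median log2 fold change of all genes was -0.33 with TMM, 0.07 with RLE and 0.12 with upper-quartile factors. Relative to that median the changes with TMM were -2.19 for ABCB11, -2.03 for ABCC2, 2.55 for ABCB1A, 1.00 for ABCC3 and 1.86 for ABCC4, the last resting on 1 library. With upper-quartile factors the median of all genes moved from 0.05 to -0.24 in S1-32 and from 0.07 to 0.34 in S3-78, and ABCB11 relative to it was 1.91 and -1.82. The comparisons at 32 weeks share the Control-32 libraries, and those at 78 weeks share the Control-78 libraries.

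**Figure D3:**
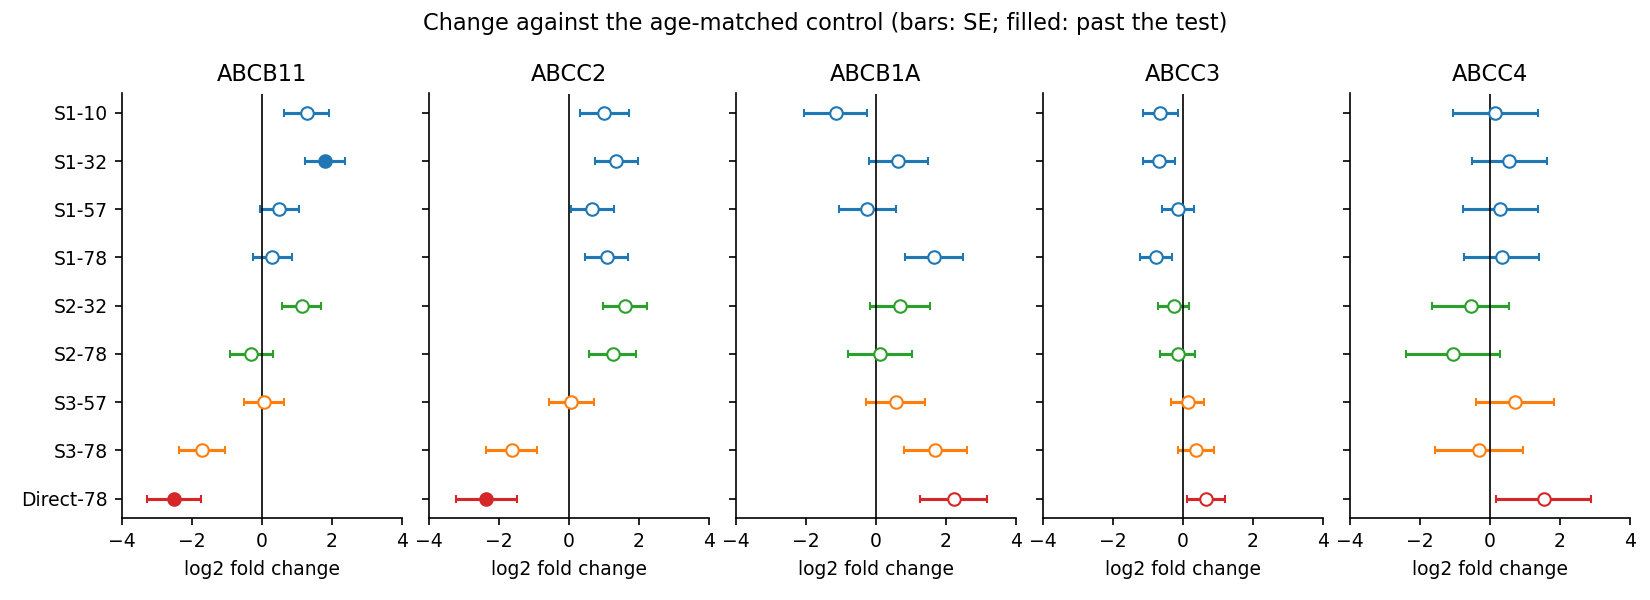
Log2 fold change of each member against age-matched controls in the 9 treated groups, with bars of 1 SE and called changes marked. ABCB11 in S1-32 (1.81) and in Direct-78 (-2.52) and ABCC2 in Direct-78 (-2.37) are the called values.

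Whether continued exposure differed from exposure that had been stopped was compared at 1 age at a time. None of the 5 members was called in S2-32 against S1-32 (3.54% of all genes called), in S3-57 against S1-57 (0% of all genes called by edgeR, 111 genes with an unadjusted p under 0.05) or in Direct-78 against S3-78 (5.03%). Of these 15 member tests 0 had an unadjusted p under 0.05, and DESeq2 and limma called 0. ABCB11 had log2 fold changes below 0 in each, -0.66 ± 0.55, -0.45 ± 0.58 and -0.80 ± 0.75. With library depth in the model the first and the last of these became 0.01 and 0.98.

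Untreated liver was compared with Control-10 at 32 weeks (1.59% of all genes called), 57 weeks (3.45%) and 78 weeks (3.95%). Of 15 member tests 0 were called by edgeR, DESeq2 or limma, and 1 had an unadjusted p under 0.05, ABCB1A at 32 weeks (-1.89 ± 0.92, adjusted p = 0.272). That value rests on mouse 68 and was -0.14 without it. ABCC2 ran from -0.86 to -0.34, ABCC3 from -0.68 to -0.34 and ABCB11 from -0.48 to 0.29.

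Differences between the changes themselves were tested as interaction terms. From S1-10 to Direct-78 the change of ABCB11 differed by -3.81 ± 1.00 on the log2 scale (adjusted p = 0.00314 in edgeR), that of ABCC2 by -3.38 ± 1.12 (adjusted p = 0.0172) and that of ABCB1A by 3.37 ± 1.33 (adjusted p = 0.0426). These are 3 of 5 members, where 33.8% of all genes passed. ABCB11 passed in all 19 fits that left out 1 library. ABCC2 did not pass without Direct-78 mouse 64 (-3.02, adjusted p = 0.0630) or without the 9 libraries high in acinar genes (-2.90, adjusted p = 0.0590). ABCB1A was 1.63 without Control-10 mouse 68 (adjusted p = 0.401) and 2.60 without Direct-78 mouse 65 (adjusted p = 0.143). It also missed the threshold without S1-10 mouse 13 (3.36, adjusted p = 0.0532), 14 (3.28, 0.0577), 15 (3.39, 0.0530) or 18 (3.32, 0.0564), or Control-78 mouse 87 (3.14, 0.0672), 89 (3.36, 0.0554) or 90 (3.31, 0.0585). The ABCB1A term was also lost with all genes that have a count (3.25, adjusted p = 0.0563), with all deposited libraries (2.39, 0.165) and in limma (1.95, 0.228). ABCC3, at 1.31 ± 0.74 (adjusted p = 0.157), passed without Direct-78 mouse 65 (1.92, adjusted p = 0.0370), under RLE scaling (1.82, 0.0391), under upper-quartile scaling (1.92, 0.0314) and in DESeq2 with or without independent filtering (1.82, 0.0320).

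From S1-32 to S3-78 the change of ABCB11 differed by -3.53 ± 0.87 (adjusted p = 0.00322 in edgeR) and that of ABCC2 by -3.00 ± 0.96 (adjusted p = 0.0147), 2 of 5 members where 34.2% of all genes passed. Both passed in all 22 fits that left out 1 library. From S1-10 to S1-78 none of the 5 members passed in edgeR, where 4.22% of all genes did. Here 1 had an unadjusted p under 0.05, ABCB1A (2.81 ± 1.22, adjusted p = 0.181), and DESeq2 and limma called 0. This ABCB1A term ran from 1.07 to 3.26 when 1 library was left out. With library depth in the model 0 of the 15 interaction terms passed, where 0.726% of those of all genes did, and those of ABCB11 became -0.65 ± 1.04 and -0.94 ± 0.94.

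The depth of the libraries moved with 2 of the members, and an estimate of this was added after seeing the data. Within groups, ABCB11 rose by 1.30 ± 0.30 on the log2 scale for each doubling of the total count (adjusted p = 0.00115 in edgeR), and ABCC2 by 1.01 ± 0.36 (adjusted p = 0.0295). These values are beyond the scaling by library size, which is already applied. ABCB1A (0.13 ± 0.55), ABCC3 (0.10 ± 0.25) and ABCC4 (0.29 ± 0.73) were not called. Thus 2 of 5 members were called, where 29% of all genes were called and the median slope of all genes was 0.09. With the log2 total in the model 0 of the 45 member tests against age-matched controls were called. Over all genes the calls went from 2083 to 807 of 19845 tests (4.07%) with it, from 642 to 36 genes in S1-32 and from 539 to 11 in Direct-78, but from 141 to 223 in S3-57. Because the totals of S1-32, S3-57, S3-78 and Direct-78 do not overlap those of their controls, depth and treatment cannot be told apart in these groups.

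**Figure D4:**
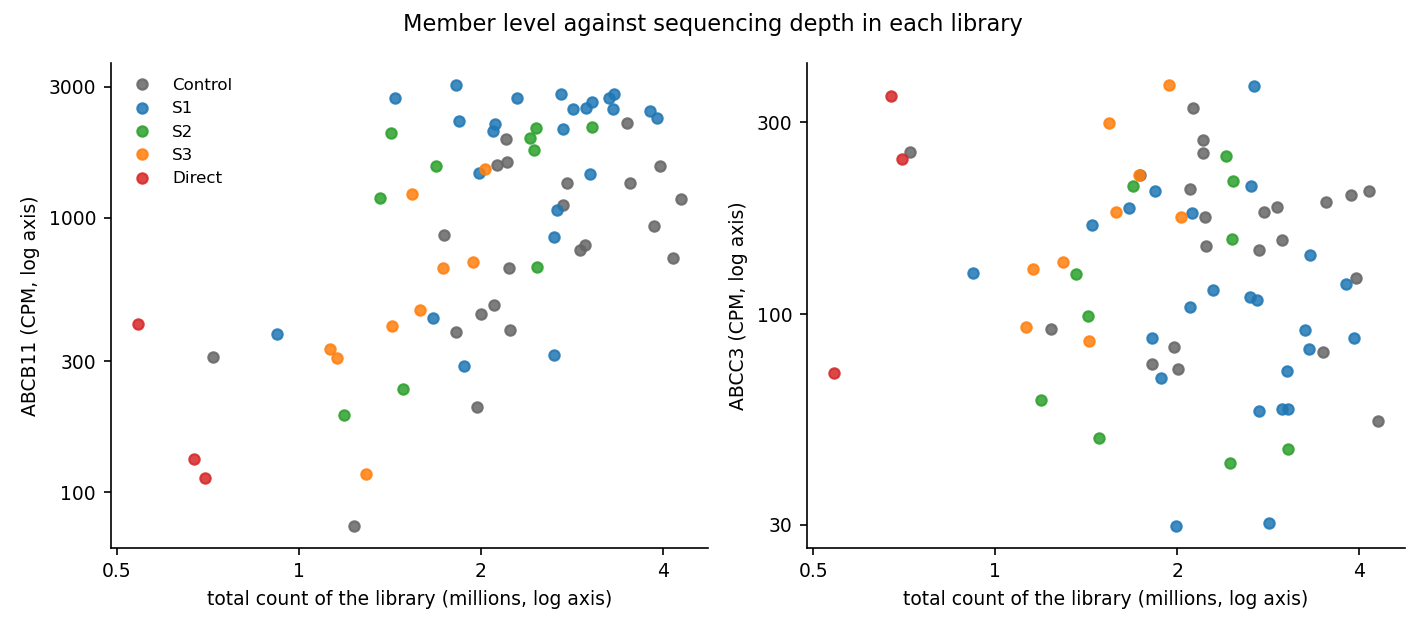
CPM of ABCB11 and of ABCC3 against the total count of the library, both on log axes, 1 point per library and coloured by exposure schedule. ABCB11 is low in the shallow libraries of Direct-78, and its slope within groups was 1.30 on the log2 scale per doubling of the total, against 0.10 for ABCC3.

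The order of the group means sets these values side by side. ABCB11 was highest in S1-32 (2573 ± 193 CPM, SD, n = 6) and S1-10 (2499 ± 385, n = 6), followed by S2-32 (1625 ± 716, n = 6), S1-78, Control-78, S1-57, Control-10, S2-78, S3-57, Control-57, Control-32, S3-78 (379 ± 239, n = 4) and Direct-78 (218 ± 166, n = 3). Among the 12 pairs of neighbours in this order, 1 differed by more than the larger SD, S1-10 and S2-32. ABCC2 ran from S2-32 (328 ± 147, n = 6), S1-10 and S1-32 through S2-78, S1-78, Control-10, S1-57, Control-78, Control-32, S3-57 and Control-57 to S3-78 (35.6 ± 10.3, n = 4) and Direct-78 (21.7 ± 13.5, n = 3). Here too 1 of 12 pairs differed by more than the larger SD, S3-78 and Direct-78.

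ABCB1A ran in a different order, from Direct-78 (27.3 ± 25.6, n = 3), S3-57, S3-78, S1-78, Control-10, Control-57, S1-57, S1-10, S2-32, S1-32, S2-78 and Control-78 to Control-32 (4.00 ± 3.69, n = 6). ABCC3 ran from Control-10 (223 ± 97.7, n = 4), Direct-78, S3-57, S3-78, Control-57, S1-57, Control-32, S1-10, Control-78, S2-78, S2-32 and S1-32 to S1-78 (82.2 ± 58.6, n = 6). ABCC4 ran from Direct-78 (3.60 ± 6.24, n = 3), S1-32, S1-10, Control-10, Control-32, S3-57, S2-32, S1-78, S1-57, Control-57, Control-78 and S3-78 to S2-78 (0.443 ± 0.550, n = 4). For these 3 genes 0 of 12 neighbouring pairs differed by more than the larger SD.

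Spread between mice was itself uneven. The SD of log2 CPM of ABCB11 was 0.11 in S1-32 and 0.22 in S1-10, but 2.08 in Control-10 and 1.21 in Control-32. Some other treated groups were as wide as Control-32, at 1.23 in S2-32, 1.22 in S1-57, 1.33 in S1-78 and 1.46 in S2-78. The rest were narrower than Control-32, at 0.92 in S3-57, 1.07 in S3-78 and 1.01 in Direct-78. Control-57 (0.59) and Control-78 (0.78) were narrower. Control-10 holds mouse 68, at 75.5 CPM. ABCC2 and ABCB11 had group means that correlated at r = 0.91 over the 13 groups, which share libraries and depth. A count made after seeing the data showed that the same library was lowest for both in 10 of 13 groups and highest for both in 10 of 13. ABCB11 and ABCC3 gave r = -0.58, and ABCC2 and ABCC3 gave r = -0.61. With ABCC4, the other basolateral gene, the sign was the opposite, r = 0.60 for ABCB11 and 0.45 for ABCC2. ABCB1A gave 0.27 with ABCC3 and -0.02 with ABCC4.

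The balance of the membrane faces was described within each library as the mean log2 count of ABCC3 and ABCC4 minus that of the canalicular genes, and was not tested. A count of 0, held by ABCC4 in 24 of 68 libraries, enters at the same value whatever the library total, so this ratio depends on depth. Direct-78 libraries gave -1.29, -3.78 and 1.09, and Control-78 libraries -3.60, -2.88 and -1.84 (lowest, median, highest). Thus 2 Direct-78 libraries lay above all controls and mouse 65 below them all, with 0 counts of ABCC4 and the highest ABCB1A of the 3. With ABCC3 and ABCB11 alone the Direct-78 libraries gave 1.11, -2.51 and 1.39 and Control-78 -4.78, -3.23 and -1.23 (lowest, median, highest), so mouse 65 lay within the control range and the other 2 still above it. Group means of the ratio over all 5 genes ran from -3.91 ± 0.85 in S1-78 (SD, n = 6) to -1.32 ± 2.43 in Direct-78 (n = 3). In S1-78, 4 of 6 libraries lay below every Control-78 library, and in S1-32 the range of -3.58 to -2.39 lay within that of Control-32 (-3.95 to -0.14). This overlap was not there with ABCC3 and ABCB11 alone. All 6 S1-32 libraries (-5.50 to -4.33) then lay below all 6 Control-32 libraries (-2.94 to -0.30). All 6 S1-10 libraries (-5.12 to -3.48) lay below all 4 Control-10 libraries (-2.66 to 0.28). In these comparisons edgeR called 29.1% and 5.49% of single genes, which is an unlike measure. The share of gene pairs that separate all libraries was not computed, so this separation is not set against all genes. The difference of ABCC3 and ABCB11 carries the ABCB11 values and their slope on depth given above.

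**Figure D5:**
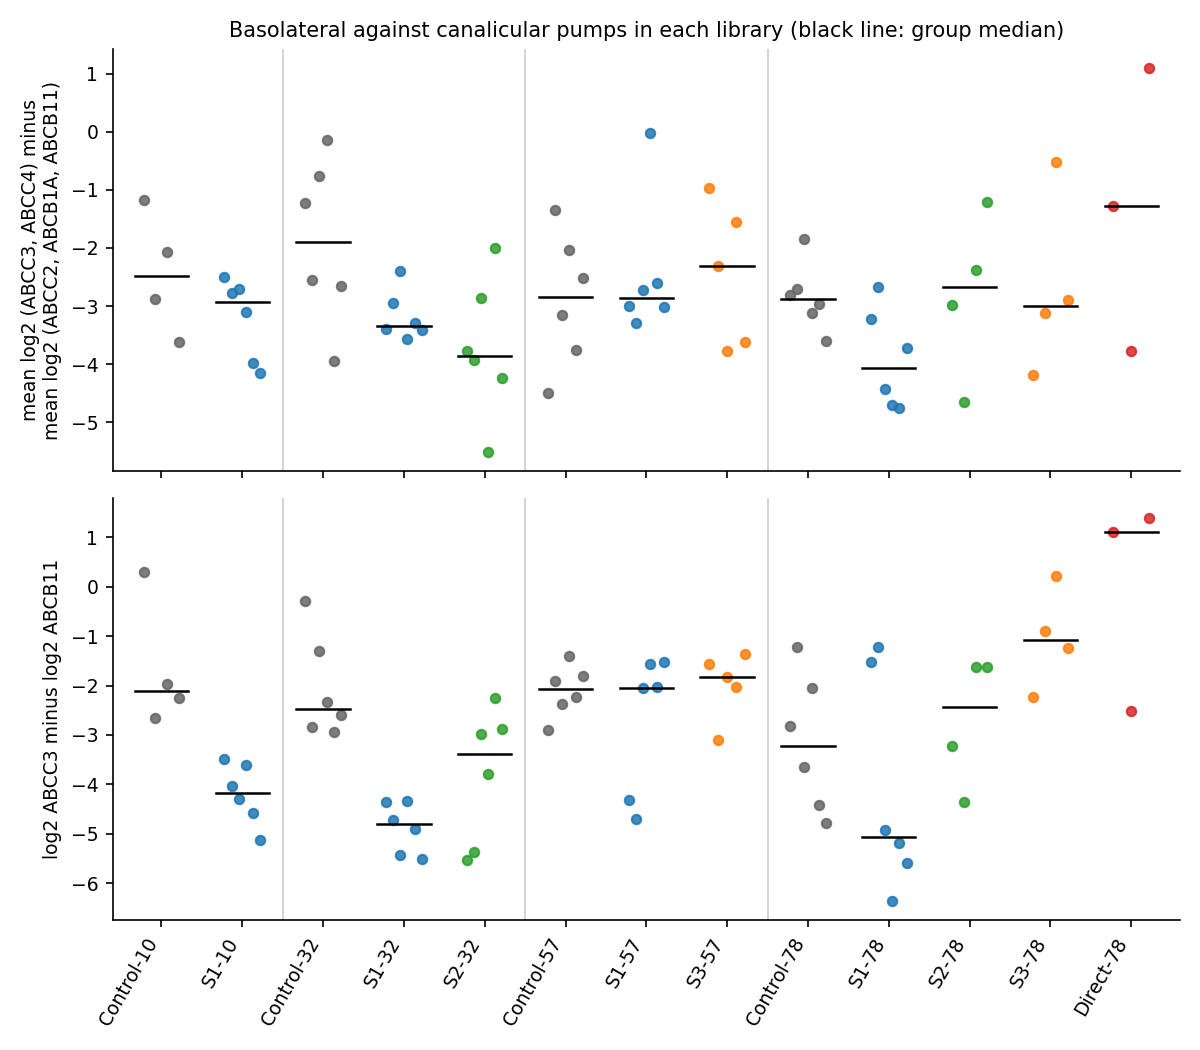
Log2 ratio of basolateral to canalicular pump counts within each library, over all 5 genes (top) and as ABCC3 over ABCB11 (bottom), 1 point per library, in the 13 groups. Over all 5 genes Direct-78 has the widest spread, from -3.78 to 1.09, and with ABCC3 and ABCB11 alone the S1-10 and S1-32 libraries lie below all their controls.

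Genes whose group means of log2 CPM were most like each member were taken from 1753 candidates over the 13 groups, as a description. For ABCB11 they were HSD3B2 (r = 0.975), a steroid dehydrogenase, BST2 (0.975), an interferon-induced membrane protein, and LPGAT1 (0.974), a lysophospholipid acyltransferase. For ABCC2 they included HNRNPH1 (0.978), an RNA-binding protein, and DUSP22 (0.957), a phosphatase. For ABCB1A they were ARRDC4 (0.899), PKIG (0.880) and CLSTN1 (0.840). For ABCC3 they were GSTA1 (0.809), a glutathione transferase, PDS5A (0.803) and CYP2A5 (0.795), a cytochrome P450, and for ABCC4 COG7 (0.812), CSRP3 (0.800) and LCAT (0.791).

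Other genes of the ABC family on the panel numbered 9. In S1-78, where 1.81% of all genes were called, 1 of the 9 was called, ABCC5, a nucleotide analogue exporter, higher (1.49 ± 0.36). In S3-78 (13.3% of all genes) 2 were called, both higher, ABCC5 (1.63 ± 0.39) and the sterol exporter ABCG1 (2.25 ± 0.61). In S1-32 (29.1%) 1 was called lower, ABCF3 (-0.88 ± 0.25), whose product has no membrane-spanning part and is not a transporter. In Direct-78 (24.4%) 2 were called lower, a share near that of all genes, the canalicular xenobiotic pump ABCG2 (-1.78 ± 0.51) and ABCC1, which held 0 counts in all 3 libraries and 1 to 15 counts in Control-78. The control mean of ABCC1, 3.23 CPM, is under what 3 counts are worth in Direct-78 (3.69 CPM), so no fold is given. The median over the 9 genes in Direct-78 was -0.47, against -0.33 over all genes.

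Genes of bile acid synthesis and uptake, the supply side of ABCB11, were tested for 10 of 24 listed. In Direct-78 5 of 10 fell and 0 rose, where 24.4% of all genes were called, with a list median of -1.28 against -0.33 over all genes. Among them, BAAT, which conjugates bile acids, fell by 2.12 ± 0.48 on the log2 scale (adjusted p = 0.00175 in edgeR), and SCP2, of peroxisomal side-chain shortening, by 1.32 ± 0.46 (adjusted p = 0.0323). SLC22A7, an organic anion uptake carrier, was also called lower (-4.25 ± 0.95), on 15, 0 and 0 counts. BAAT also fell in S3-78 (-1.67), where 13.3% of all genes were called. The list median was 0.93 in S1-10 and -0.80 in S2-78. In these 2 groups 4 and 5 of the 10 had an unadjusted p under 0.05 in edgeR and 0 were called, where 5.49% and 1.63% of all genes were.

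Regulators of export pumps were tested for 12 of 16 listed. In Direct-78 3 of 12 fell and 0 rose, a share near the 24.4% of all genes called. The list median was -0.43, against -0.33 over all genes. Among the 3 were HNF4A, a master regulator of hepatocyte genes (-2.19 ± 0.66, adjusted p = 0.0137 in edgeR), and KEAP1, the repressor of NRF2 (-1.19 ± 0.33, adjusted p = 0.00725). KEAP1 was the 1 regulator called in S3-78 (-0.88), where 13.3% of all genes were called. CEBPB, a transcription factor of the acute phase response, fell in S1-10 (-2.01) and S1-32 (-1.85), and NR1I2, the xenobiotic receptor PXR, rose in S2-32 (1.47). These were 1 of 12 in S1-10 (5.49% of all genes called) and in S2-32 (10.7%). In S1-32 another of the 12 rose, so that 2 of 12 were called where 29.1% of all genes were, and 0 were called in S1-57, S1-78, S2-78 and S3-57, with 0, 3, 2 and 0 at an unadjusted p under 0.05.

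NRF2 targets were tested for 8 of 12 listed. In S3-78 and Direct-78 3 of the 8 were called, 1 higher and 2 lower, where 13.3% and 24.4% of all genes were called, and in S1-32 (29.1%) and S1-78 (1.81%) 1 each, lower. NQO1, a quinone reductase, rose in S3-78 (2.53 ± 0.73) and Direct-78 (2.28 ± 0.78), while SRXN1, which repairs peroxiredoxins, was lower in S1-78 (-2.89), S3-78 (-2.77) and Direct-78 (-3.67), and GCLM, of glutathione synthesis, was lower in S3-78 (-1.04) and Direct-78 (-0.93). The SRXN1 values rest on Control-78 mice 87 and 90, at 578 and 2911 CPM. The other 4 controls, at 64.5 to 119 CPM, overlap S1-78 (42.2 to 155 CPM) and S3-78 (58.2 to 143 CPM), while Direct-78 held 25.7, 91.8 and 35.1 CPM. TXNRD1 was lower in S1-32 (-1.02). CAR and PXR targets were tested for 10 of 11 listed, with 2 called in S1-10 (5.49% of all genes) and 1 each in S2-78 (1.63%), S3-78 (13.3%) and Direct-78 (24.4%). CYP3A11 and CYP2A5, both cytochrome P450 genes, were lower in S1-10 (-1.83 and -3.45), CYP3A11 was higher in S2-78 (1.94), and the esterase CES2A was lower in S3-78 (-1.92) and Direct-78 (-2.53).

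Markers of the cell types a liver section can hold were measured beside the members. The 4 hepatocyte genes on the panel, led by TTR in most groups, summed to 22697 ± 4093 CPM in Direct-78 (SD, n = 3), 28596 ± 8381 in S3-78 (n = 4), 37216 ± 7146 in Control-78 (n = 6), 34938 ± 6392 in Control-32 (n = 6) and 38913 ± 3047 in S1-32 (n = 6). In Direct-78 (24.4% of all genes called) 1 of 4 was called, FGB (-3.64 ± 1.00), with CPS1 at -1.40, APOA1 at -0.68 and TTR at -0.61. In S1-32 (29.1%) 2 of 4 were called, FGB (2.73 ± 0.71) and CPS1 (1.41 ± 0.56), in the same direction as ABCB11. The uncalled markers there were TTR at 0.07 and APOA1 at -0.18. None was called in S3-78 by edgeR, with 2 at an unadjusted p under 0.05, FGB (-2.09) and TTR (-1.20). CPS1 was -0.91 there and APOA1 0.60. Their part in the change of the pumps was not tested.

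Of 3 bile duct genes, 2 were called in Direct-78 (24.4% of all genes called), KRT19 higher (2.94) and SPP1 lower (-3.63). The median log2 fold change of the 3 genes was 2.17. The sum of the 3 was 134 ± 121 CPM there and 109.9 ± 149 CPM in Control-78, led by KRT19 and SPP1. These values rest on few libraries: KRT19 was 231, 8.10 and 79.7 CPM in Direct-78 against 3.05 to 46.98 CPM in Control-78, and SPP1 was 0, 13.5 and 9.46 CPM against 5.84 to 356 CPM, the highest control of both being mouse 90. Of 4 macrophage genes, CD68 and C1QA were higher in S1-32 (2.40 and 1.86) and CD68 lower in Direct-78 (-2.95), 2 of 4 and 1 of 4 where 29.1% and 24.4% of all genes were called, and 1 of 4 was higher in S2-32 (10.7%); C1QB led a sum of 590.2 ± 89.5 CPM in S1-32, 244 ± 124 in Control-32, 129 ± 81.4 in Direct-78 and 286 ± 103 in Control-78. Of 4 endothelial genes, KDR alone was called in S1-32 (1.73), with sums of 337 ± 41.8 CPM there and 182 ± 75.3 in Control-32; in Direct-78 1 of the 4 held no count. The 5 stellate genes, led by COL1A1, summed to 198 ± 84.1 CPM in S1-32, 142 ± 62.4 in Control-32, 128 ± 19.1 in Direct-78 and 80.1 ± 23.2 in Control-78, with 0 called in S1-32, S3-78 or Direct-78 and 0, 1 and 0 at an unadjusted p under 0.05. In S1-78 (1.81% of all genes called) 3 of the 5 were higher, in S2-32 (10.7%) and S2-78 (1.63%) 2 each, and in S1-10 (5.49%) 1 was lower. The stellate sums were 593 ± 496 CPM in S1-78, 532 ± 193 in S2-32 and 431 ± 321 in S2-78. In S1-10 the sum was 132 ± 31.5 CPM, against 330 ± 114 in Control-10.

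Genes of pancreatic acinar cells were high in 9 of 68 libraries, where the sum of 11 genes, scaled by library total alone, was over 10 times the median library (12.5 CPM). After TMM scaling they reached 24449.9 CPM in S1-78, 15025 in S2-78, 4921 in S1-10 and 2752 in S1-32. Direct-78 mouse 64 was among the 9 at 139 CPM, but not among the 8 over the limit after TMM scaling, where it held 95.9 CPM. S1-57 mouse 27 was not among the 8 either (98.5 CPM), while Control-32 mouse 75 entered them at 152 CPM. Mouse 75 held the lowest ABCB11 (205 CPM) and the highest ABCB1A (10.2 CPM) of Control-32. Of the 6 tested, 4 were called higher in S1-78 (1.81% of all genes called), 3 in S2-78 (1.63%) and 1 in S1-32 (29.1%). The 9 libraries fall in 8 groups. The highest ABCB1A value of the group was in such a library in 6 of the 8 (mice 17, 19, 27, 31, 51 and 55), and the lowest ABCB11 value in 5 of the 8 (mice 27, 31, 47, 51 and 64). The lowest ABCC3 value was also in such a library in 5 of the 8, and the lowest ABCC2 value in 3. Without the 9 libraries 1 of 45 member tests was called, ABCB11 in S1-32. The Direct-78 values, no longer called, were then -2.13 for ABCB11 and -1.92 for ABCC2, against -2.52 and -2.37 with all 68. Without the 8, a set added after seeing the data, the same 3 were called as with all libraries.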

How the data were processed

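The count values were made from TempO-Seq reads by the authors, whose deposited notes name Bowtie, Partek 10.0.22.0524, DESeq2 and mm10. The normalized signal values were deposited by the authors as well and equal the count plus 1 over a size factor, within a relative deviation of 0.00335 for values of 10 or more. Of 78 deposited libraries the 68 kept by the authors were used.

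Counts of 2205 genes that passed the authors' filter were scaled by TMM and fitted with 1 mean per group by edgeR's quasi-likelihood test, with Benjamini-Hochberg adjustment within each comparison; a change was called at an adjusted p of 0.05 or less with a fold beyond 1.5, and an interaction term by adjusted p alone. DESeq2 and limma were run as alternatives. Software was R 4.3.3, edgeR 4.0.16, limma 3.58.1, DESeq2 1.42.0, Python 3.11.15, pandas 2.3.3 and numpy 2.4.6. The log2 ratio added 0.5 to each count. Pairs of libraries were compared for duplication within groups only: over 151 pairs the lowest chi-square per degree of freedom was 25.7.

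Members and gene lists were chosen with earlier results of these data known. Genes outside the members are named when they rank in the first 3 for likeness to a member, when they are other ABC family genes called in a treated group, or when they are among up to 4 genes called in the most treated groups in each of the next 4 lists below; called cell markers are named as well. Some genes that meet this rule are not reported here. The lists are other ABC family genes, bile acid synthesis and uptake, regulators of export pumps, NRF2 targets, CAR and PXR targets, and markers of hepatocytes, bile ducts, endothelium, macrophages, stellate cells and pancreatic acinar cells. The slope on log2 total count, the set of libraries high in TMM-scaled acinar sums, the promoter motifs and the counts of shared lowest and highest libraries were added after seeing the data. The code was tested on simulated data; the first stopping rule of that test, on how many planted changes were found, was not met and was replaced by rules on size, sign and false calls, with the fit unchanged. Proteins were not analysed here.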

Additional observations from a re-analysis of the deposited data

Results flagged for a closer look

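A test for a single distant library was run in 72 sets of gene or ratio and group, on unlogged CPM for the genes. Its nominal rate of about 1 in 20 holds for normally distributed values. Such CPM need not be so distributed, and ABCB1A and ABCC4 hold counts of 0, so the result is not set against that rate. A library stood out in 7 sets. For ABCB1A these were Control-57 mouse 84 at 32.2 CPM, S1-78 mouse 31 at 60.2 CPM and S3-78 mouse 55 at 34.2 CPM, each the highest of its group. Mice 31 and 55 are among the 9 libraries high in pancreas acinar genes (309 and 296 CPM by library total, against a median of 12.5 CPM). ABCB11 had S2-32 mouse 41 at 237 CPM, the lowest of its group. ABCC4 had Control-10 mouse 68 at 7.67 CPM and S3-78 mouse 59 at 3.71 CPM, the highest of their groups, on few counts. All other S3-78 libraries held no ABCC4 count, so mouse 59 would have stood out with any count, and nothing is read from that set. The ratio of basolateral to canalicular pumps had S1-57 mouse 28 at -0.0230, whose ABCC2 rests on 2 counts.

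Between the S1-10 and the Direct-78 change, edgeR's interaction terms passed for ABCC2 (-3.38), ABCB1A (3.37) and ABCB11 (-3.81). Between the S1-32 and the S3-78 change they passed for ABCC2 (-3.00) and ABCB11 (-3.53). None passed with library depth in the model.

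Among the 10 libraries left out by the authors, some lay above every control. S2-78 mouse 46 (total 394328) held 375 CPM of ABCC3. S2-78 mouse 48 (total 539248) held 123 CPM of ABCB1A and 16.7 CPM of ABCC4. Direct-78 mouse 62 (total 658155) held 12.2 CPM of ABCB1A and 15.3 CPM of ABCC4. Both left-out untreated libraries also lay above every kept control for 1 gene each, Control-10 mouse 70 with 474 CPM of ABCC2 (highest control 191 CPM) and mouse 67 with 13.7 CPM of ABCC4 (8.03 CPM). Of the 8 left-out treated libraries, ABCC2 lay below every age-matched control in 7, ABCB1A in 5 and ABCC3 in 3. The totals of these 8 libraries ran from 244409 to 658155. All 5 ABCB1A values are 0 counts, against control minima of 0.923 CPM at 78 weeks and 3.24 CPM at 57 weeks. A count of 0 allows up to 3 counts, which are worth more than these minima at such totals. For ABCB1A these libraries therefore cannot be placed below the controls. ABCB11 lay below every age-matched control in all 8 and in 1 of the 2 left-out untreated libraries. The latter was Control-10 mouse 67 (24.97 CPM against a minimum of 79.1 CPM), while Control-10 mouse 70 held 918 CPM. S3-57 mouse 52 and S3-78 mouse 57 had 0 counts of ABCB11, and the part of depth in these ABCB11 values was not tested. Direct-78 mice 61, 62 and 63 held 39.03, 67.3 and 65.1 CPM against a control minimum of 502 CPM. Their pancreas acinar sums, scaled by library total, were 11450.1, 9068 and 28653 CPM, and that of mouse 67 was 969 CPM, against a median of 12.5 CPM in the 68 libraries; the part of this in their ABCB11 was not tested.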

How the results depend on the processing

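The 3 member calls against age-matched controls became 0 with library depth in the model, 7 with the number of detected genes in it, 5 with only the compared groups, 1 without the 9 libraries high in acinar genes (3 without the 8 that are high after TMM scaling, a set added after seeing the data) and 7 by DESeq2, with or without independent filtering. Leaving out 1 library gave 1 to 6 (1 without Direct-78 mouse 64 or 66, 6 without Control-32 mouse 74). The 5 interaction calls became 0 with depth in the model. Over all genes, depth in the model took the calls from 2083 to 807 of 19845 tests against age-matched controls. For interaction terms it took them from 1592 to 48 of 6615. No count over all genes is given for the other settings, so a change in the member calls under them is not set against that of all genes.

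Signs were reversed mainly by depth in the model: in Direct-78 ABCC2 became 0.21 and ABCB11 0.79, against S3-78 they became 0.55 and 0.98, ABCB11 in S2-32 against S1-32 became 0.0101 and ABCC2 in S3-57 against S1-57 0.0162. By limma ABCB1A in S1-10 became 0.21, ABCC2 in S1-57 -0.0257 and the ABCC4 difference from S1-10 to Direct-78 -0.0320. With all deposited libraries ABCC4 in S2-78 became 0.95 and ABCC2 in Direct-78 against S3-78 0.12.

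Lowest and highest values over leaving out 1 library, where these have opposite signs: ABCB1A in S1-10 -1.57 to 0.59, and in Control-78 against Control-10 -1.85 to 0.31. For ABCC4, Direct-78 gave -4.48 to 2.30 and against S3-78 -4.21 to 6.00, its difference from S1-10 gave -4.56 to 2.28, and Control-57 and Control-78 against Control-10 gave -1.44 to 1.35 and -1.29 to 1.28. Some of these ABCC4 fits leave a group without a count, so their size has no meaning.

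The ABCC4 level in S2-78 was -1.004 from the mean of the groups in the authors' normalized values. With ABCC3 and ABCB11 alone the ratio, from the mean of the groups, moved from -0.45 to -1.54 in S1-10, from -0.42 to -2.23 in S1-32, from 0.07 to 1.61 in S3-78 and from 1.43 to 2.64 in Direct-78. This centring, and the limit to folds beyond 1.5, were chosen after seeing the data. Alternatives were run for members; for other named genes they were not run.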
